A study of Mus musculus with 8 samples.

Results

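Gene expression in pre-CD8 cells was set against gene expression in CDP cells, with both Id2 reporter classes of each stage pooled, so that 4 pre-CD8 arrays were compared with 4 CDP arrays. A gene was a member of the set described here when its log2 intensity on all 4 pre-CD8 arrays lay above, or on all 4 lay below, its log2 intensity on all 4 CDP arrays. Of 19938 genes measured, 475 met this criterion, or 2.38%, with 214 higher in pre-CD8 (1.07% of genes) and 261 lower (1.31%). Some genes would part in this way without any stage difference, and how many was not tested. Membership alone is therefore a description of these arrays and not evidence of a stage change. The same 8 arrays make up the whole series.

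The cells were sorted from the marrow of mouse pelvis, tibia and femur after red cells had been lysed, and their RNA was labelled with the Affymetrix pico-scale kit and hybridised to Affymetrix whole-transcript mouse arrays. Each stage was divided by green fluorescence into Id2-GFP- and Id2-GFP+ cells, with 2 arrays for each of the 4 populations. The genotype field gives heterozygous Id2-IRES-GFP mice for both Id2-GFP- CDP samples and heterozygous Zbtb46-GFP mice for the other 6 samples, whereas the titles name the Id2 reporter for all 8, and the groups follow the titles. Among Id2-GFP- cells the stage and the genotype field therefore cannot be told apart, while among Id2-GFP+ cells both stages carry the same entry. No treatment or mouse age is given in the labels, nor are the sort gates, and nothing there says that replicates came from different mice, so every p-value below measures only the spread between these arrays.

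CDP is the usual abbreviation for the common dendritic cell progenitor, a bone marrow cell that gives rise to the conventional and plasmacytoid dendritic cells and is commonly sorted by the receptors CD115 (the product of Csf1r), Flt3 and Kit. The labels do not define pre-CD8 further. In the field the name is used for a precursor committed to the CD8-type conventional dendritic cell, now called cDC1, which depends on the transcription factors Irf8, Batf3, Nfil3 and Id2 and specialises in presenting antigen of dead cells. The other conventional type, cDC2, shares several surface genes with monocytes, including Sirpa, Clec10a and Cx3cr1.

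Median log2 intensity was 6.12 to 6.27 on all 8 arrays, and replicates of a population correlated across genes with r of 0.984 to 0.989. Mean linear intensity was 461 to 478 on 4 arrays and 402 to 414 on the other 4, called the brighter and the dimmer set here, and each set held 1 array of every population. Stage differences were therefore also computed within each set, and with the set as a block.

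F13a1, Fn1 and Csf1r, all genes of monocytes and macrophages, fell the most among genes that passed the test, and the MHC class II genes Cd74, H2-Aa and H2-Ab1 and the adaptor gene Gcsam rose the most. In limma's additive fit, which estimates 1 stage difference with the reporter class as a second term, 7 genes were higher in pre-CD8 (0.0351% of genes tested) and 16 were lower (0.0802%) at a Benjamini-Hochberg adjusted p under 0.05. Of those 23 genes, 4 higher and 14 lower were also members. The other 5 passed while their stages overlapped, namely Cd74, H2-Aa and H2-Ab1, which were higher, and Ly6a2 and Clec5a, which were lower. The criterion of no overlap and the limma test read the same 8 arrays, so neither supports the other. The unadjusted p was under 0.05 for 1214 genes.

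The additive fit passed few genes, and the number depended on single arrays. Leaving out Id2-GFP- CDP replicate 2 left 0 genes, and leaving out replicate 1 of the same population left 4, namely Cd74, Csf1r, Fn1 and H2-Ab1. Without Id2-GFP- pre-CD8 replicate 1, 8 genes passed, and without its replicate 2, 3 passed (Cd74, Csf1r and F13a1). Without Id2-GFP+ pre-CD8 replicate 2, 3 passed (Csf1r, Fn1 and H2-Ab1), and without its replicate 1, 7 passed. Without Id2-GFP+ CDP replicate 1, 16 genes passed, and without its replicate 2, 6 passed. With the brightness set as a block, 44 genes were higher (0.221%) and 77 lower (0.386%), all 23 genes of the additive fit among them. Each of the 23 had the same sign in both brightness sets. For the 18 that were members, the lack of overlap fixes that sign in advance. The others were picked for their stage difference on these same arrays, so the like signs are not a separate check.

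Among growth factor receptors, Csf1r, which encodes the receptor for the monocyte and macrophage growth factor M-CSF, was lower on every pre-CD8 array. Its log2 intensity was 11.11 and 10.97 on the Id2-GFP- CDP arrays, 10.14 and 10.53 on the Id2-GFP+ CDP arrays, 9.30 and 8.90 in Id2-GFP- pre-CD8 and 8.09 and 7.93 in Id2-GFP+ pre-CD8. The stages did not overlap, and within each stage the Id2-GFP+ arrays were the lower ones. Csf1r fell by 2.13 on the log2 scale (SE 0.17, n = 4 arrays per stage, limma adjusted p = 0.0084), a 4.38-fold difference, with differences of -1.94 among Id2-GFP- and -2.33 among Id2-GFP+ cells. Of the 23 genes it was the least dependent on single arrays: its adjusted p was 0.0129 to 0.0538 over the 8 fits that each left out 1 array, and missed the threshold only without Id2-GFP- CDP replicate 2. CD115 is a common gate protein for CDP, and whether the gates used it was not tested.

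On the list of growth factor and cytokine receptors, 17 genes measured, 1 passed as lower (Csf1r) and 2 were lower without overlap. The shares over all genes were 0.0802% and 1.31%. The second gene without overlap was Csf2rb2, a beta chain of the interleukin-3 receptor, at 9.0 to 9.72 on CDP arrays and 8.32 to 8.93 on pre-CD8 arrays (difference -0.81, SE 0.21, limma adjusted p = 0.345). Flt3, the receptor for the main growth factor of dendritic cell progenitors, had log2 intensities of 10.73 to 11.71 on CDP arrays and 11.05 to 12.58 on pre-CD8 arrays, which overlap. Kit, the receptor for stem cell factor, overlapped as well, at 9.73 to 10.89 against 10.44 to 11.68, with a difference of 0.77 (SE 0.35, limma adjusted p = 0.861). With the brightness set as a block the adjusted p of Kit was 0.0069, and the difference was 0.72 in the brighter and 0.81 in the dimmer set.

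F13a1 had the largest fall of all genes. It encodes the catalytic subunit of coagulation factor XIII, a transglutaminase that crosslinks fibrin and is made by monocytes, macrophages and megakaryocytes. Its log2 intensity was 11.63 and 10.96 in Id2-GFP- CDP, 9.68 and 10.71 in Id2-GFP+ CDP, 8.31 and 7.03 in Id2-GFP- pre-CD8, and 7.16 and 7.16 in Id2-GFP+ pre-CD8. The lowest CDP array lay 1.37 above the highest pre-CD8 array. The fall was 3.33 on the log2 scale (SE 0.33, n = 4 arrays per stage, limma adjusted p = 0.0169, or 0.0215 to 0.0634 with 1 array left out), with differences of -3.63 in Id2-GFP- and -3.03 in Id2-GFP+ cells.

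Fn1, the gene of fibronectin, a matrix protein secreted by macrophages among other cells, also fell in both reporter classes. Its log2 intensity was 8.20 and 8.89 in Id2-GFP- CDP, 10.48 and 10.63 in Id2-GFP+ CDP, 6.62 and 6.20 in Id2-GFP- pre-CD8, and 7.83 and 7.10 in Id2-GFP+ pre-CD8. At each stage the Id2-GFP+ arrays were the higher ones, opposite to Csf1r. The stage difference was -2.61 (SE 0.27, n = 4 arrays per stage, limma adjusted p = 0.0182, or 0.0232 to 0.0823 with 1 array left out).

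Ms4a6d, of a family of membrane proteins expressed in myeloid cells, had log2 intensities of 5.81 to 6.79 on CDP arrays and 4.89 to 5.55 on pre-CD8 arrays, and fell by 1.04 (SE 0.14, limma adjusted p = 0.0473, or 0.05002 to 0.199 with 1 array left out, past the threshold in none of the 8 fits). In all, 4 of the 14 monocyte and macrophage genes measured passed as lower and 5 were lower without overlap, against 0.0802% and 1.31% of all genes. The fifth was Cd14, the coreceptor for lipopolysaccharide (5.60 to 6.29 against 5.04 to 5.50, limma adjusted p = 0.436). The list had a median difference of -0.65, with 13 of 14 differences below 0, against a median of -0.01 over all genes and 52.6% below 0. Its summed linear intensity was 11287 to 12609 in Id2-GFP- CDP, 13784 to 15702 in Id2-GFP+ CDP, 3023 to 3387 in Id2-GFP- pre-CD8 and 10467 to 11595 in Id2-GFP+ pre-CD8. In bulk RNA fewer cells of a type and less RNA per cell cannot be told apart, and the share of monocytes in the sorted cells was not tested.

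Promoters of F13a1 and Prtn3 are shown because both genes fell by over 2 on the log2 scale and both runs hold the ETS-type letters AGGAAG, a core bound by the myeloid factor PU.1 and its relatives. Each run covers the 250 bases before the start of the gene in RefSeq on build GRCm38.p6, written 5′ to 3′ along the gene's own strand, with AGGAAG or its reverse complement CTTCCT in capitals. F13a1 lies on the minus strand (chr13:37050245-37050494, the farther upstream of 2 listed starts), with matches beginning 65 and 105 bases before the start. Prtn3 lies on the plus strand (chr10:79879417-79879666), with matches at 94 and 167 bases.
F13a1: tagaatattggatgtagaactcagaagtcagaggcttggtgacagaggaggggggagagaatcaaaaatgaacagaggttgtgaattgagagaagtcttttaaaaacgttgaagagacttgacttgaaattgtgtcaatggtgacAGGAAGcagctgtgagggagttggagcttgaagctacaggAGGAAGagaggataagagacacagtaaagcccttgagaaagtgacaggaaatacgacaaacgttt
Prtn3: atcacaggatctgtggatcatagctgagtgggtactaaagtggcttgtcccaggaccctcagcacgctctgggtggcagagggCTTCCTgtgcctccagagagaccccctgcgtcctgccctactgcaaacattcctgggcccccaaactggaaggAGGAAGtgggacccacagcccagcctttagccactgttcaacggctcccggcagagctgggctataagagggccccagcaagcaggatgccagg
Matches to AGGAAG on either strand were found in 34.7% of 202 lower members with a promoter sequence, 38.8% of 165 higher members and 31.7% of 15614 genes, so the letters are common in promoters at large. A match is only a description of the sequence.

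Prtn3 encodes proteinase 3, a serine protease stored in the granules of neutrophil and monocyte precursors. Its log2 intensity was 12.89 and 12.35 in Id2-GFP- CDP, 11.95 and 12.68 in Id2-GFP+ CDP, 10.99 and 9.86 in Id2-GFP- pre-CD8, and 10.47 and 10.43 in Id2-GFP+ pre-CD8. It fell by 2.03 on the log2 scale (SE 0.26, n = 4 arrays per stage, limma adjusted p = 0.0394, or 0.0445 to 0.131 with 1 array left out), with no overlap between stages. Prtn3 was the only one of 17 neutrophil and granule genes to pass or to lie apart by stage. Over all genes 0.0802% passed as lower and 1.31% were lower without overlap. The list had a median of 0.18 among Id2-GFP- and -0.96 among Id2-GFP+ cells, and its summed linear intensity was 18375 to 31297 in Id2-GFP- CDP, 63070 to 98056 in Id2-GFP+ CDP, 13730 to 17675 in Id2-GFP- pre-CD8 and 43471 to 50587 in Id2-GFP+ pre-CD8. At both stages the sum was higher in the Id2-GFP+ class, and whether neutrophil precursors account for a share of it was not tested. With the brightness set as a block, 3 genes of the list passed as lower, against 0.386% of all genes.

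Slpi and Anxa3, which are often seen in granulocyte precursors as well, fell with Prtn3. Slpi, an inhibitor of leukocyte serine proteases, was at 7.98 and 8.11 in Id2-GFP- CDP, 7.54 and 7.88 in Id2-GFP+ CDP, 6.61 and 6.71 in Id2-GFP- pre-CD8, and 6.51 and 6.63 in Id2-GFP+ pre-CD8. Its 4 pre-CD8 values spanned 0.20 on the log2 scale, and the difference was -1.26 (SE 0.14, limma adjusted p = 0.0212). Anxa3, a phospholipid-binding annexin, was at 10.04 and 9.37 in Id2-GFP- CDP, 9.30 and 10.03 in Id2-GFP+ CDP, 8.23 and 7.55 in Id2-GFP- pre-CD8, and 7.71 and 8.14 in Id2-GFP+ pre-CD8. In each population of Anxa3 the brighter array was the higher one, and the difference of -1.78 (SE 0.24, limma adjusted p = 0.0473) was -1.85 in the brighter and -1.71 in the dimmer set. With 1 array left out Anxa3 passed in 0 of 8 fits (adjusted p 0.05002 to 0.179) and Slpi in 1 (0.0215 to 0.113).

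Clec7a and Clec10a, surface lectins of myeloid cells, fell. Clec7a, the beta-glucan receptor dectin-1, was at 8.58 and 8.36 in Id2-GFP- CDP, 7.90 and 8.17 in Id2-GFP+ CDP, 6.01 and 5.30 in Id2-GFP- pre-CD8, and 6.47 and 6.76 in Id2-GFP+ pre-CD8. It fell by 2.12 (SE 0.29, limma adjusted p = 0.0473), with -2.82 among Id2-GFP- and -1.42 among Id2-GFP+ cells, a difference between classes that did not pass (interaction adjusted p = 0.313). Clec7a did not pass once any 1 of the 8 arrays was left out (adjusted p 0.05002 to 0.184). Clec10a, a lectin for galactose-type sugars, was at 7.25 to 7.83 on CDP arrays and 5.95 to 6.38 on pre-CD8 arrays and fell by 1.40 (SE 0.16, limma adjusted p = 0.0277, or 0.0230 to 0.130 with 1 array left out, passing in 1 of 8 such fits). These were the 2 of 21 genes of the list of C-type lectin, Fc and SLAM receptors that passed, against 0.0802% of all genes. On that list 1 member was higher without overlap, Cd244a, a SLAM-family receptor (10.02 to 10.77 on CDP arrays, 10.94 to 11.24 on pre-CD8 arrays, limma adjusted p = 0.248).

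Sirpa, the receptor for CD47 and a usual marker of cDC2, fell by 1.23 (SE 0.17, limma adjusted p = 0.0473, or 0.0472 to 0.217 with 1 array left out, passing in 1 of 8 such fits). Its log2 intensity was 10.50 and 10.59 in Id2-GFP- CDP, 10.34 and 10.57 in Id2-GFP+ CDP, 9.82 and 9.31 in Id2-GFP- pre-CD8, and 9.08 and 8.88 in Id2-GFP+ pre-CD8. The 4 CDP values spanned 0.26. Of 18 cDC2 genes measured, 3 passed as lower (Csf1r, Clec10a and Sirpa), against 0.0802% of all genes. Without overlap 5 were lower and 1 higher, against 1.31% and 1.07% of all genes, and the median difference was -0.29. Cx3cr1, the fractalkine receptor, was lower without overlap (10.57 to 10.87 against 8.83 to 9.98, difference -1.28, limma adjusted p = 0.172), as was the lectin gene Mgl2 (6.59 to 7.59 against 5.55 to 6.22, limma adjusted p = 0.262). The higher one was Irf4, a transcription factor of cDC2 and lymphocytes (5.25 to 6.16 against 6.25 to 6.60, limma adjusted p = 0.345), so the list did not move as a whole.

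The remaining lower members that passed do not belong to 1 pathway. Cyp4f18, a cytochrome P450 that breaks down leukotriene B4, was at 7.22 to 7.91 on CDP and 5.49 to 6.61 on pre-CD8 arrays and fell by 1.54 (SE 0.18, limma adjusted p = 0.0277). Gria3, a subunit of AMPA-type glutamate receptors, was at 11.70 to 12.24 and 10.65 to 11.05 and fell by 1.15 (limma adjusted p = 0.0473). Tm7sf3, a membrane protein, was at 9.48 to 9.67 and 8.42 to 8.67 and fell by 1.04 (limma adjusted p = 0.0358), with nearly equal differences of -1.04 and -1.05 in the reporter classes. Fosl2, a subunit of the transcription factor AP-1, was at 8.5 to 8.64 and 7.19 to 7.71 and fell by 1.01 (limma adjusted p = 0.0473). Gria3, Tm7sf3 and Fosl2 no longer passed whichever of the 8 arrays was left out (adjusted p 0.05002 to 0.186, 0.0523 to 0.165 and 0.0614 to 0.244), and Cyp4f18 no longer passed in 7 of the 8 fits (0.0381 to 0.128).

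**Figure D1:**
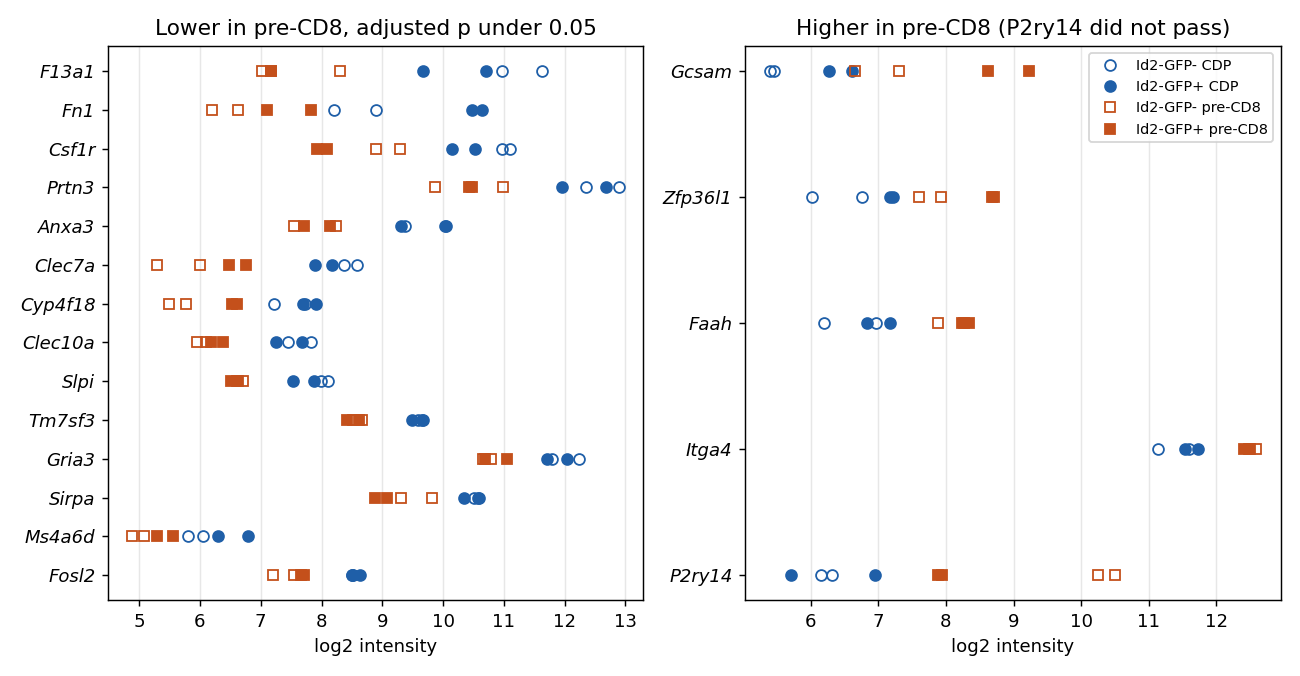
Log2 intensity (x axis) of the 14 lower and 4 higher members that passed limma's additive fit, and of P2ry14, which did not pass, on each of the 8 arrays. Circles are CDP and squares pre-CD8, open symbols Id2-GFP- and filled symbols Id2-GFP+. In every row all squares lie on one side of all circles, by the rule that chose the genes, and the distance is largest for F13a1, where the difference was -3.33.

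The 4 higher members that passed were Gcsam, Zfp36l1, Faah and Itga4. Gcsam encodes a signalling adaptor first known from germinal centre B cells and counted among cDC1 genes. It was at 5.46 and 5.39 in Id2-GFP- CDP, 6.27 and 6.61 in Id2-GFP+ CDP, 6.66 and 7.30 in Id2-GFP- pre-CD8, and 8.63 and 9.23 in Id2-GFP+ pre-CD8. The lowest pre-CD8 array was 0.05 above the highest CDP array, and at each stage the Id2-GFP+ arrays were the higher ones. Gcsam rose by 2.02 (SE 0.25, n = 4 arrays per stage, limma adjusted p = 0.0300, or 0.0232 to 0.132 with 1 array left out), with 1.56 among Id2-GFP- and 2.49 among Id2-GFP+ cells.

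Zfp36l1, an RNA-binding protein that speeds the decay of AU-rich messengers, was at 6.02 and 6.75 in Id2-GFP- CDP, 7.21 and 7.17 in Id2-GFP+ CDP, 7.60 and 7.93 in Id2-GFP- pre-CD8, and 8.71 and 8.68 in Id2-GFP+ pre-CD8. It rose by 1.44 (SE 0.18, limma adjusted p = 0.0311), with like differences of 1.38 and 1.5 in the reporter classes. Faah, the hydrolase that degrades the endocannabinoid anandamide, was at 6.97 and 6.20, then 6.84 and 7.17 in CDP, and at 8.27 and 7.89, then 8.24 and 8.34 in pre-CD8, Id2-GFP- cells first. Faah rose by 1.39 (SE 0.20, limma adjusted p = 0.0473). Itga4, the alpha chain of integrins that bind VCAM-1 and fibronectin, was at 11.14 to 11.72 on CDP arrays and 12.40 to 12.59 on pre-CD8 arrays, so that the 4 pre-CD8 values spanned only 0.19. It rose by 0.99 (SE 0.13, limma adjusted p = 0.0473). Itga4 was the 1 of 19 genes of the list of chemokine receptors, integrins and migration that passed, against 0.0351% of all genes. Zfp36l1, Faah and Itga4 each missed the threshold whichever array was left out (adjusted p 0.0614 to 0.138, 0.0919 to 0.179 and 0.0863 to 0.187).

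Gcsam is the higher member whose promoter is shown, since it had the largest rise among the members that passed. The run is the 250 bases before its RefSeq start on GRCm38.p6 (chr16:45610190-45610439, plus strand), with CTTCCT, the reverse complement of AGGAAG, in capitals 87 bases before the start.
Gcsam: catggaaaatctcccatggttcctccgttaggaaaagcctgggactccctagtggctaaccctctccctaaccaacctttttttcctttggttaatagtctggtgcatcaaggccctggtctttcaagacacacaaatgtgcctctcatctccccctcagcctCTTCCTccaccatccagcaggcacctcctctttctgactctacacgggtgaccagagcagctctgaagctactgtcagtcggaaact
Of the higher members 38.2% of 165 held CCAAT on either strand, against 38.8% of 15614 genes, and 62.4% held the GC box letters GGGCGG on either strand, against 49.3%. No test was made of these shares.

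P2ry14, the receptor for UDP-glucose, was higher on every pre-CD8 array by a wide margin but did not pass. It was at 6.31 and 6.15 in Id2-GFP- CDP, 5.71 and 6.95 in Id2-GFP+ CDP, 10.50 and 10.25 in Id2-GFP- pre-CD8, and 7.95 and 7.88 in Id2-GFP+ pre-CD8. Pre-CD8 exceeded CDP by 4.15 among Id2-GFP- and 1.59 among Id2-GFP+ cells, and the additive fit, which assumes 1 difference for both, gave 2.87 (SE 0.49, limma adjusted p = 0.112, or 0.0423 to 0.409 with 1 array left out). The difference between the reporter classes did not pass for P2ry14 (interaction adjusted p = 0.135). A difference in Id2-GFP- cells over 2 times that in Id2-GFP+ cells was seen in 96 of the 214 higher members (44.9%), near the 40.1% of the 4737 genes that were higher in both classes. In the 261 lower members it was seen in 90 (34.5%), near the 36.9% of the 5403 genes lower in both classes. The converse was seen in 10 higher members (4.67%, against 23.6% of those genes) and 23 lower ones (8.81%, against 25.2%). These ratios were not tested.

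The member with the largest rise, Lax1, named here after its values were seen, also had its larger difference in Id2-GFP- cells. Lax1 encodes a transmembrane adaptor of lymphocyte signalling. It was at 5.46, 5.60, 5.44 and 5.93 on the 4 CDP arrays, at 10.38 and 9.96 in Id2-GFP- pre-CD8 and at 6.93 and 7.18 in Id2-GFP+ pre-CD8. The additive difference was 3.0 (SE 0.57, limma adjusted p = 0.152), and the difference between reporter classes passed (-3.27, interaction adjusted p = 0.0185). Lax1 was 1 of 7 members with an interaction adjusted p under 0.05, among 29 such genes in all (0.145% of genes tested). None of the 23 genes that passed the additive fit was among the 29.

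MHC class II presentation genes had the highest median of the 27 lists. Of 9 genes measured, 3 passed as higher, against 0.0351% of all genes. Of the 9, 8 had a difference above 0, and the median was 1.71 (1.29 among Id2-GFP- and 1.62 among Id2-GFP+ cells). Cd74, the invariant chain that escorts class II molecules, was at 5.40 and 6.09 in Id2-GFP- CDP, 9.99 and 10.29 in Id2-GFP+ CDP, 8.16 and 8.85 in Id2-GFP- pre-CD8, and 12.12 and 12.48 in Id2-GFP+ pre-CD8. Id2-GFP+ CDP lay above Id2-GFP- pre-CD8, so the stages overlapped and Cd74 was not a member, although within each class both pre-CD8 arrays were above both CDP arrays. It rose by 2.46 (SE 0.24, n = 4 arrays per stage, limma adjusted p = 0.0169, or 0.0279 to 0.0634 with 1 array left out).

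H2-Aa, the alpha chain of the class II molecule I-A, was at 6.28 and 6.34 in Id2-GFP- CDP, 10.90 and 11.66 in Id2-GFP+ CDP, 8.88 and 9.03 in Id2-GFP- pre-CD8, and 12.68 and 13.11 in Id2-GFP+ pre-CD8. It rose by 2.13 (SE 0.25, limma adjusted p = 0.0277, or 0.0134 to 0.118 with 1 array left out). The I-A beta chain H2-Ab1 was at 8.03 and 7.93, then 10.77 and 11.06 in CDP, and at 9.47 and 9.52, then 12.59 and 13.07 in pre-CD8, Id2-GFP- cells first. H2-Ab1 rose by 1.71 (SE 0.16, limma adjusted p = 0.0169, or 0.0267 to 0.0634 with 1 array left out), and both chains showed the overlap seen in Cd74. H2-Eb1, the beta chain of I-E, had a difference of 1.99 (SE 0.31, limma adjusted p = 0.0813), with 1.29 among Id2-GFP- and 2.69 among Id2-GFP+ cells.

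H2-Ob was the 1 member on the class II list. It encodes the beta chain of H2-O, which modulates the loading of peptides by H2-M. Its order over the populations was unlike that of Cd74, H2-Aa, H2-Ab1 and H2-Eb1: 8.81 and 8.78 in Id2-GFP- CDP, 9.16 and 9.16 in Id2-GFP+ CDP, 11.49 and 11.44 in Id2-GFP- pre-CD8, and 10.03 and 10.47 in Id2-GFP+ pre-CD8. Its stage difference was 1.88 (SE 0.30, limma adjusted p = 0.0813). The transactivator gene Ciita was at 5.31 to 7.61 on CDP arrays and 5.80 to 10.14 on pre-CD8 arrays, with differences of 0.61 and 2.29 in the reporter classes (limma adjusted p of the additive fit 0.299). H2-DMa and Ctss, the protease that trims the invariant chain, had differences of 0.12 and -0.06. With the brightness set as a block, 5 genes of the list passed as higher, against 0.221% of all genes. Probes of near-identical paralogs, such as the MHC genes, may also bind transcripts of their relatives, which makes single values less certain.

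Promoters of H2-Aa, H2-Eb1 and H2-Ob are shown because these genes belong to the class II list and because class II promoters are known to carry an inverted CCAAT, the Y box bound by the factor NF-Y. Each run is again the 250 bases before the RefSeq start on GRCm38.p6, with CCAAT or its reverse complement ATTGG in capitals. H2-Aa lies on the minus strand (chr17:34287824-34288073), with ATTGG 48 bases before the start. H2-Eb1 lies on the plus strand (chr17:34305617-34305866), with ATTGG at 59 and CCAAT at 35 bases. H2-Ob lies on the plus strand (chr17:34238655-34238904), with ATTGG at 57 bases.
H2-Aa: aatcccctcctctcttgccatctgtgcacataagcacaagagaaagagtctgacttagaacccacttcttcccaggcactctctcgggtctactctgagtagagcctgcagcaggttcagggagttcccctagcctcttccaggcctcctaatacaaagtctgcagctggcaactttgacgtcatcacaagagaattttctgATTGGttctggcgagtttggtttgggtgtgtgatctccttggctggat
H2-Eb1: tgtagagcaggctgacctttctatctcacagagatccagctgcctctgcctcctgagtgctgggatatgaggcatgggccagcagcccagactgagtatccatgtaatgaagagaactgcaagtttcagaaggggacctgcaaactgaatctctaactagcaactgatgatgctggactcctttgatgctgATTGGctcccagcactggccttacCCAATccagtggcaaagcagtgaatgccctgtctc
H2-Ob: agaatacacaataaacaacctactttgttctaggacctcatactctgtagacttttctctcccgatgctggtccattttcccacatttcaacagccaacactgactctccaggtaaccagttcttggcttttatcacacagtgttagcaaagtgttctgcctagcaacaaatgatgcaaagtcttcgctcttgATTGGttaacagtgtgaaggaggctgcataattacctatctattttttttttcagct
CCAAT on either strand was found in 38.8% of all 15614 promoters, so a match by itself does not set these genes apart. In the lower members the share was 43.6% of 202.

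**Figure D2:**
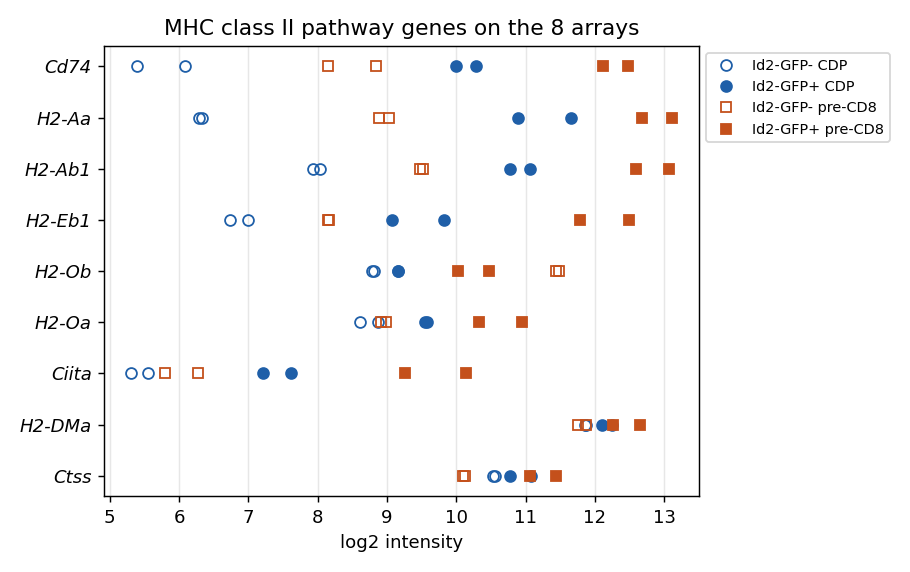
Log2 intensity (x axis) of the 9 measured MHC class II pathway genes on each of the 8 arrays, with circles for CDP, squares for pre-CD8, open symbols for Id2-GFP- and filled symbols for Id2-GFP+. Within each reporter class the squares of Cd74, H2-Aa, H2-Ab1 and H2-Eb1 lie to the right of the circles, while Id2-GFP+ CDP lies to the right of Id2-GFP- pre-CD8; in H2-Ob the Id2-GFP- pre-CD8 arrays are the highest, at 11.49 and 11.44.

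The stage difference was also fitted within each reporter class. Within Id2-GFP- cells, 206 genes were higher in pre-CD8 (1.03%) and 118 lower (0.592%) in limma at an adjusted p under 0.05, and 19 of the 23 genes of the additive fit were among them. Within Id2-GFP+ cells 0 genes passed in either direction (0%), with 643 at an unadjusted p under 0.05. Each within-class difference compares 2 arrays with 2. The brightness set changed these counts: with it as a block, 194 genes were higher (0.973%) and 220 lower (1.1%) within Id2-GFP+ cells, and 1161 higher (5.82%) and 1325 lower (6.65%) within Id2-GFP- cells. The interaction test, which asks whether the stage difference differs between the classes, passed 29 genes without the block and 1492 (7.48%) with it. Of the 475 members, 31 differed by 1 or more on the log2 scale in both classes, with 14 higher and 17 lower in pre-CD8. Genes that were not members, such as Cd74, H2-Aa, H2-Ab1, H2-Eb1, Ly6a2 and Clec5a, did so as well. The share over all genes was not counted.

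Those 31 include genes not yet described, named after their values were seen, and none of the following passed the additive fit. On the lower side, Papss2, which makes the donor of sulfate groups, was at 5.91 to 7.15 on CDP and 4.61 to 4.99 on pre-CD8 arrays (difference -1.69, limma adjusted p = 0.0934). Gja1, a connexin of gap junctions, was at 6.77 to 7.56 and 5.69 to 6.45 (limma adjusted p = 0.0759). Abcd2, a peroxisomal transporter of fatty acids, was at 7.23 to 8.65 and 6.16 to 7.06. Hk3, a hexokinase of myeloid cells, was at 7.91 to 9.41 and 6.62 to 7.61, and Mefv, the gene of pyrin, was at 7.62 to 8.58 and 5.32 to 7.15. On the higher side, Rnf122, a ubiquitin ligase, was at 7.78 to 8.37 on CDP and 9.01 to 9.70 on pre-CD8 arrays (difference 1.42, limma adjusted p = 0.0559). Kynu, the tryptophan pathway enzyme kynureninase, was at 5.65 to 7.85 and 7.96 to 9.30, and Tox, a nuclear factor of T cell and innate lymphoid development, was at 5.88 to 7.20 and 7.92 to 9.47. With the brightness set as a block, 62 members were among the 121 genes that passed, 44 of them higher (0.221% of all genes) and 77 lower (0.386%). Members were chosen by stage on the same arrays, so a larger share among members is built in.

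**Figure D3:**
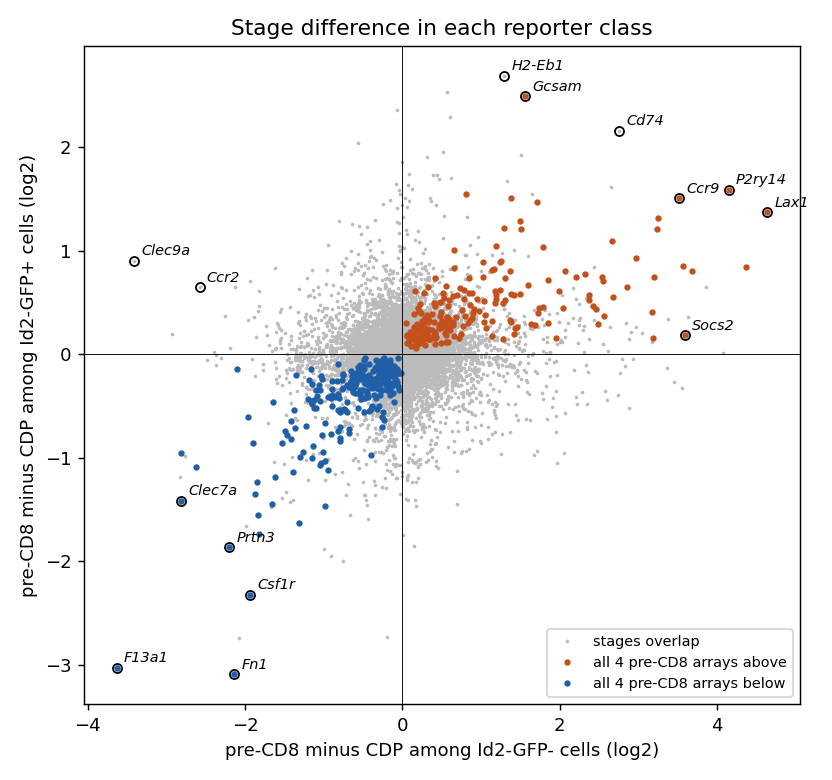
Difference between pre-CD8 and CDP in log2 units among Id2-GFP- cells (x axis) and among Id2-GFP+ cells (y axis) for all 19938 genes, with the 214 higher members in orange, the 261 lower members in blue and other genes in grey. F13a1, Fn1 and Csf1r lie far down and left in both classes, Lax1 and P2ry14 lie farther along the x axis (4.64 and 4.15) than along the y axis (1.37 and 1.59), and Clec9a and Ccr2 have opposite signs in the classes.

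Transcription factors of dendritic cell development mostly overlapped between stages. Of 33 measured, 0 passed the additive fit and the median difference was 0.15. Without overlap 2 were higher and 1 lower, against 1.07% and 1.31% of all genes. Mycn, a Myc-family factor of progenitors, was the largest: it was at 5.00 to 5.31 on all 4 CDP arrays, 8.81 and 7.98 in Id2-GFP- pre-CD8, and 6.27 and 6.44 in Id2-GFP+ pre-CD8 (difference 2.22, SE 0.38, limma adjusted p = 0.114). Myc itself was at 9.86 to 11.95 on CDP and 10.12 to 12.22 on pre-CD8 arrays, with a difference of 0.27. The lower one was Cebpb, a factor of monocytes (6.67 to 6.98 against 6.23 to 6.49, limma adjusted p = 0.455).

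Among factors tied to cDC1 none passed the additive fit. Id2 was at 5.14 and 6.30 in Id2-GFP- CDP, 9.77 and 9.26 in Id2-GFP+ CDP, 5.90 and 7.18 in Id2-GFP- pre-CD8, and 10.69 and 10.99 in Id2-GFP+ pre-CD8. Its order followed the reporter, and the stage difference was 1.07 (SE 0.34, limma adjusted p = 0.532). Batf3 had stage differences of 0.09 among Id2-GFP- and 1.48 among Id2-GFP+ cells, and the conventional dendritic cell factor Zbtb46 had 0.00 and 0.84. Irf8 was at 12.39 to 12.77 on CDP and 11.46 to 13.01 on pre-CD8 arrays, with a difference of -0.28, and Nfil3 had a difference of 0.22. The limma adjusted p was 0.625 for Batf3 and 1.00 for each of the other 3.

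Zeb2, a repressor that favours plasmacytoid and cDC2 cells over cDC1, was at 10.20 and 9.70 in Id2-GFP- CDP, 8.16 and 9.30 in Id2-GFP+ CDP, 9.25 and 8.84 in Id2-GFP- pre-CD8, and 6.45 and 7.11 in Id2-GFP+ pre-CD8. The stages overlapped, and the difference was -1.43 (SE 0.32, limma adjusted p = 0.257, or 0.0438 with the brightness set as a block). Tcf4, the E protein of plasmacytoid dendritic cells, had a difference of 0.15, Bcl6 of 0.29 and Klf4 of -0.55, each with a limma adjusted p of 1.00. Klf4 and Bcl6 had opposite signs in the classes (-1.55 and 0.44, -0.33 and 0.91), and neither interaction passed (adjusted p 0.400 and 0.241).

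Markers of the mature cDC1 gave mixed values. Of 22 cDC1 genes measured, 1 passed as higher (Gcsam) and 2 were higher without overlap, against 0.0351% and 1.07% of all genes. Of the 22, 19 had a difference above 0, with a median of -0.02 among Id2-GFP- and 0.85 among Id2-GFP+ cells. The second member was Clnk, a signalling adaptor (6.54 to 7.47 on CDP arrays, 8.09 to 8.98 on pre-CD8 arrays, difference 1.55, limma adjusted p = 0.152). Clec9a, the receptor for dead cells, was at 8.92 and 9.65 in Id2-GFP- CDP, 9.01 and 9.52 in Id2-GFP+ CDP, 5.47 and 6.28 in Id2-GFP- pre-CD8, and 9.78 and 10.55 in Id2-GFP+ pre-CD8. Its level in Id2-GFP- pre-CD8 was thus below that of the other 3 populations, and the interaction passed (4.31, adjusted p = 0.0397). Xcr1, the chemokine receptor of cDC1, was at 4.61 to 5.66 and Cd8a at 5.39 to 6.27 over all 8 arrays, with stage differences of 0.30 and -0.04. No detection calls were used, so whether these genes were expressed at all cannot be said. The summed linear intensity of the cDC1 list was 9017 to 10930 in Id2-GFP- pre-CD8 and 27570 to 35738 in Id2-GFP+ pre-CD8, against 10610 to 12345 and 18595 to 19147 in the CDP classes.

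Some genes of plasmacytoid and lymphoid cells were among the higher members. Ccr9, the receptor for the gut and thymus chemokine CCL25, was at 4.99 and 4.84 in Id2-GFP- CDP, 4.54 and 5.42 in Id2-GFP+ CDP, 8.15 and 8.71 in Id2-GFP- pre-CD8, and 6.36 and 6.62 in Id2-GFP+ pre-CD8. Both pre-CD8 classes lay above every CDP array, and the difference was 2.51 (SE 0.39, limma adjusted p = 0.0798). Ly6d, an early B cell and plasmacytoid surface gene, was at 6.16 to 7.37 on CDP arrays, 8.36 and 10.25 in Id2-GFP- pre-CD8 and 8.17 and 7.62 in Id2-GFP+ pre-CD8 (limma adjusted p = 0.519). The pDC list had 3 of 20 genes higher without overlap (Ccr9, Ly6d and Irf7), against 1.07% of all genes, and 0 that passed. Its medians were 0.71 and 0.07 in the Id2-GFP- and Id2-GFP+ cells. In the additive fit 14 of the 20 differences were above 0 and 6 below, among them Cd300c (-1.04) and Lair1 (-0.73). Siglech and Tcf4, also on the list, overlapped between stages, with differences of 0.17 and 0.15. The summed intensity of the list was 14311 to 17079 in Id2-GFP- pre-CD8 and 6767 to 10306 over the other 3 populations. The part of plasmacytoid cells in these values was not tested.

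Gata3, a factor of T cells and innate lymphoid cells, had like differences in both classes. It was at 5.27 and 5.70 in Id2-GFP- CDP, 5.40 and 5.61 in Id2-GFP+ CDP, 6.39 and 7.16 in Id2-GFP- pre-CD8, and 7.03 and 6.42 in Id2-GFP+ pre-CD8, with differences of 1.29 and 1.22 (limma adjusted p of the additive fit 0.0934, or 0.0183 with the brightness set as a block). It was the 1 of 19 T, NK and ILC genes that did not overlap, against 2.38% of all genes, and the median of that list was 0.02. The B lineage list had 2 of 15 genes higher without overlap, against 1.07% of all genes. They were the kinase gene Blk (6.01 to 6.21 against 6.35 to 7.79, limma adjusted p = 0.378) and the tetraspanin gene Cd37 (10.21 to 10.66 against 10.72 to 11.02, limma adjusted p = 0.566). In the lymphoid list 17 of 19 genes had a difference above 0 and 0 passed the additive fit. The median of that list was 0.85 among Id2-GFP- and 0.01 among Id2-GFP+ cells. Within Id2-GFP- cells 6 passed as higher, against 1.03% of all genes. Rag2, which cuts antigen receptor genes together with Rag1, was at 7.70 and 7.61 in Id2-GFP- pre-CD8 and at 4.53 to 4.97 on the other 6 arrays (interaction -3.13, adjusted p = 0.0036).

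Of 20 interferon response genes, 6 passed as higher within Id2-GFP- cells, against 1.03% of all genes, and 0 passed the additive fit. The list had a median of 1.16 among Id2-GFP- and -0.08 among Id2-GFP+ cells. Irf7, the factor that amplifies type I interferon, was a member with like differences in both classes: 7.53 and 7.85 in Id2-GFP- CDP, 8.22 and 9.0 in Id2-GFP+ CDP, 9.34 and 9.06 in Id2-GFP- pre-CD8, and 9.33 and 10.30 in Id2-GFP+ pre-CD8 (difference 1.36, SE 0.25, limma adjusted p = 0.152). Isg20, an interferon-induced nuclease, was at 6.77 to 7.33 on CDP arrays, 8.79 and 8.38 in Id2-GFP- pre-CD8 and 7.40 and 7.65 in Id2-GFP+ pre-CD8 (limma adjusted p = 0.449).

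Differences of cell cycle genes were mostly below 0, and none of the genes passed the additive fit. In the S phase list 28 of 29 genes had a difference below 0, with a median of -0.40. Of the 29, 5 were lower without overlap, against 1.31% of all genes. The 5 were Cdc45 and Gins2, parts of the replicative helicase, the primase gene Prim1, the clamp gene Pcna and the nucleotide hydrolase gene Dut. Pcna was at 12.68 to 12.76 on CDP arrays and 12.43 to 12.62 on pre-CD8 arrays, a difference of -0.18 (SE 0.08, limma adjusted p = 0.802). Cdc45 was at 9.60 to 9.94 and 8.70 to 9.55, a difference of -0.55 (limma adjusted p = 0.566). All 33 G2 and M phase genes had a difference below 0. Their median was -0.59 in the additive fit, -1.19 among Id2-GFP- and -0.01 among Id2-GFP+ cells. Within Id2-GFP- cells 10 of them passed as lower, against 0.592% of all genes. None of the 33 was a member.

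**Figure D4:**
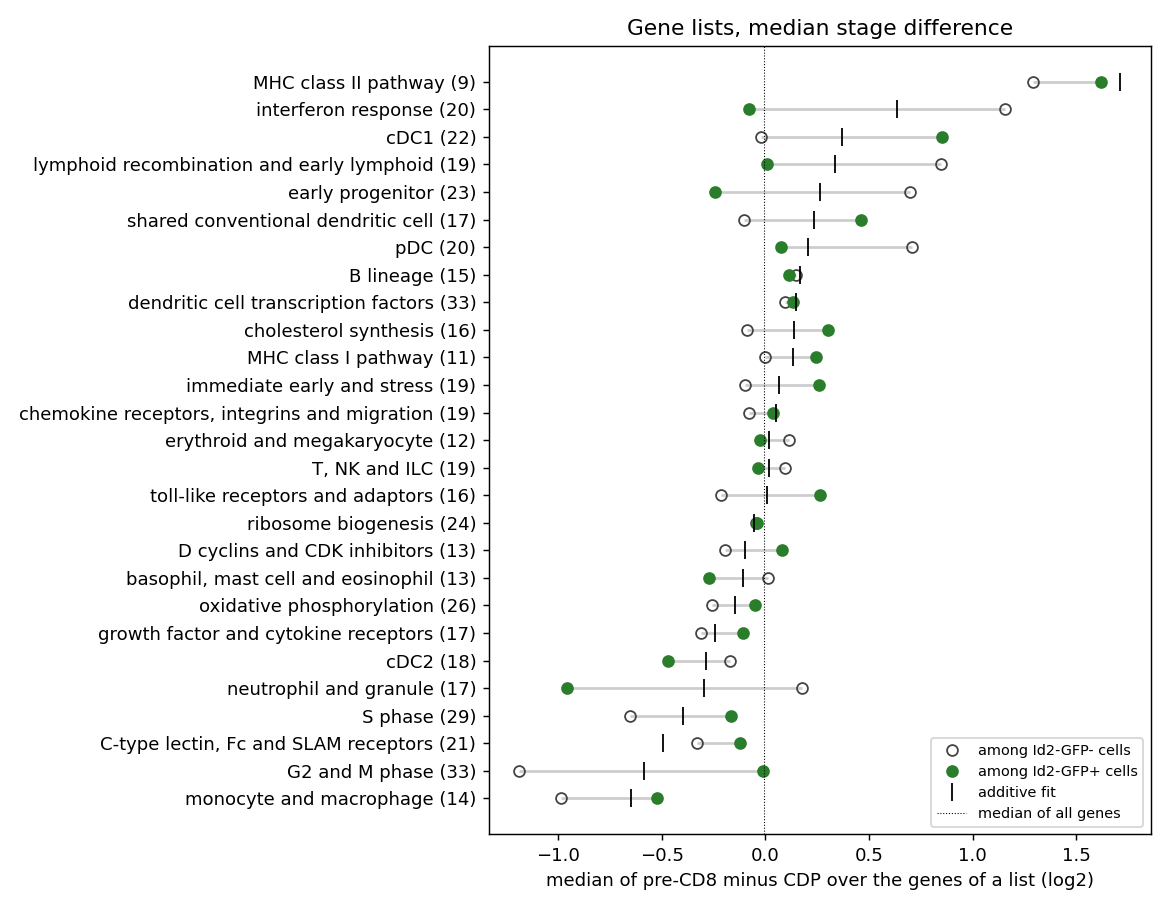
Median difference between pre-CD8 and CDP in log2 units (x axis) over the measured genes of 27 lists, whose numbers of genes stand in brackets, among Id2-GFP- cells (open circles), among Id2-GFP+ cells (filled circles) and in the additive fit (vertical ticks). The MHC class II pathway is the highest in the additive fit (1.71) and the monocyte and macrophage list the lowest (-0.65), while G2 and M phase (-1.19 and -0.01) and interferon response (1.16 and -0.08) differ widely between the classes.

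Other lists held few members, where 2.38% of all genes were members. In oxidative phosphorylation 25 of 26 genes had a difference below 0 with a median of -0.15, 0 passed, and Cox5a was lower without overlap (10.98 to 11.11 against 10.58 to 10.86, limma adjusted p = 0.802). The sphingosine phosphate receptor gene S1pr3 was lower without overlap (9.18 to 9.50 against 8.19 to 8.83, limma adjusted p = 0.236), as was Ticam2, an adaptor of toll-like receptor signalling (7.80 to 8.34 against 7.33 to 7.80, which only just part, limma adjusted p = 0.472). No member was found among 11 MHC class I pathway genes, 24 ribosome biogenesis genes, 16 cholesterol synthesis genes, 17 shared conventional dendritic cell genes, 19 immediate early and stress genes, 13 D cyclins and CDK inhibitors, 12 erythroid and megakaryocyte genes or 13 basophil, mast cell and eosinophil genes, and none of these genes passed. The early progenitor list had 1 member of 23, Mycn.

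Ly6a2 and Clec5a passed as lower although their stages overlapped. Ly6a2, of the Ly6 family of surface proteins, was at 7.81 and 7.98 in Id2-GFP- CDP, 10.29 and 10.95 in Id2-GFP+ CDP, 6.36 and 6.11 in Id2-GFP- pre-CD8, and 9.05 and 9.24 in Id2-GFP+ pre-CD8 (difference -1.57, SE 0.18, limma adjusted p = 0.0251, or 0.0215 to 0.113 with 1 array left out). Clec5a, a myeloid lectin that signals through DAP12, was at 6.42 and 6.13, then 7.92 and 8.80 in CDP, and at 4.63 and 4.97, then 6.96 and 7.10 in pre-CD8, Id2-GFP- cells first (difference -1.40, SE 0.20, limma adjusted p = 0.0473, or 0.0215 to 0.227 with 1 array left out). As with Cd74, the reporter classes lay farther apart than the stages.

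Most members differed little. The median difference was 0.49 over the higher and -0.37 over the lower members, and 50 higher and 34 lower members reached 1 on the log2 scale. How many of all genes reached 1 was not counted. The smallest differences were 0.09 and -0.05. At the edge of the criterion, the higher member Arrdc3 had a highest CDP value of 8.1302 and a lowest pre-CD8 value of 8.1307, and the lower member Arid3a had a lowest CDP value of 8.7876 and a highest pre-CD8 value of 8.7870. Just outside lay the prolactin-family gene Prl8a9 and the taste receptor gene Tas2r114, each with both stages meeting at the same value (3.7395 and 3.7090). Of the 475 members, 153 had a mean level below the median gene, where RMA compresses differences. By definition as many genes lie below that median as above it, so members were less often dim than genes at large.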

How the data were processed

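Per the labels' protocols, total RNA of sorted marrow progenitors was extracted on columns, amplified and hybridised to 8 arrays. The authors deposited linear intensity values for 28853 probe sets, made with RMA (Affymetrix Expression Console, version not given) per the submitters' processing notes. RMA corrects background, normalises between arrays and compresses dim values. The deposited intensities were converted to log2 here and not normalised again, and no column of values was left unused (0).

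The array annotation gave 1 symbol to 21789 probe sets, several to 1621 and no entry to 5443. Only the first were used, and the probe set with the highest mean over the 8 arrays stood for a gene, which left 19938 genes. Promoter sequences were matched by symbol for 15614 genes and 367 of 475 members.

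Stage differences (pre-CD8 minus CDP) came from limma 3.58.1 in R 4.3.3, with reporter class as an additive term, an intensity trend and no filter (5 residual, 4.09 prior, 9.09 total degrees of freedom). A second fit with 4 group means gave within-class differences and the interaction. Tests were two-sided, Benjamini-Hochberg adjusted over all genes, at 0.05. The additive fit was also run on simulated data with independent arrays. Those lack the brightness difference of the real arrays, so that run does not check the p-values for it. Folds are ratios of geometric mean intensities. Python 3.11.15 made the summaries.

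Named genes were up to 14 per direction that passed and did not overlap, ranked by the smaller within-class difference and filled to 5 where fewer passed, then up to 4 members of each of 27 lists by smallest p, 17 regulators and receptors whatever their values, and 5 interaction genes. Others are said to be named after their values were seen. The members, lists and tests were chosen with earlier results of these data known, and the differences within each brightness set and the interquartile range scaling of the no-overlap counts were chosen after seeing the data. Replicate numbers did not pair the samples across reporter classes, where deviations of same-numbered arrays correlated at -0.63 to -0.69. Within a reporter class, same-numbered arrays of the 2 stages deviated alike (0.69 and 0.71). At both stages replicate 1 was the brighter in Id2-GFP- and replicate 2 in Id2-GFP+ cells. The main fit has no term for this likeness, and the brightness block has. Alternatives tried were blocks, scalings, filters, probe set means, the genotype field and leaving out each array.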

Additional observations from a re-analysis of the deposited data

Results flagged for a closer look

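The stage difference itself differed between reporter classes, by limma's interaction test at an adjusted p under 0.05, for 29 genes, 7 with the more positive difference in Id2-GFP+ cells and 22 with the more negative. Each within-class difference compares 2 arrays with 2. Clec9a had an interaction of 4.31 (stage difference -3.41 among Id2-GFP- and 0.90 among Id2-GFP+ cells, adjusted p = 0.0397). The chemokine receptor gene Ccr2 had an interaction of 3.22 (-2.58 and 0.64, adjusted p = 0.0135), with log2 intensities of 9.49 to 10.63 in CDP, 6.97 and 6.98 in Id2-GFP- pre-CD8 and 11.06 and 11.11 in Id2-GFP+ pre-CD8.

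The other 4 genes with the smallest interaction p had the reverse sign, each with the 2 Id2-GFP- pre-CD8 arrays above the other 6. Socs2, an inhibitor of cytokine signalling, had an interaction of -3.41 (9.08 and 9.14 against 5.42 to 5.95 elsewhere, adjusted p = 0.0036). Rag2 had -3.13 (7.70 and 7.61, adjusted p = 0.0036), the interferon-induced gene Ifi206 had -2.69 (8.01 and 7.88, adjusted p = 0.0183), and the semaphorin gene Sema3d had -2.46 (7.63 and 7.59, adjusted p = 0.0135). Socs2 and Sema3d were members. Both Id2-GFP- CDP samples carry another entry in the genotype field than the pre-CD8 samples, and its part in these values cannot be told apart from stage.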

How the results depend on the processing

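The additive fit gave 7 higher and 16 lower genes. With a replicate block it gave 1 and 1 (Cd74 and Csf1r), with the brightness set as a block 44 and 77, with quantile normalization 18 and 34, with median and interquartile range scaling 18 and 31, without the intensity trend 5 and 9, without dim genes 11 and 17, and with 4 group means 104 and 52. Without the reporter term 0 passed. On the 6 arrays of one genotype field entry 0 passed as well. No Id2-GFP- CDP array is left among those 6, so that stage difference is the one within Id2-GFP+ cells and not a separate check. Leaving out each array in turn gave 0 to 5 higher and 0 to 14 lower genes. Within Id2-GFP- cells, 206 higher and 118 lower genes became 110 and 47 with the replicate block, 1161 and 1325 with the brightness set as a block and 416 and 442 after quantile normalization, and ranged over 66 to 211 and 11 to 115 with an array left out. Within Id2-GFP+ cells, 0 and 0 became 194 and 220 with the brightness set as a block and 16 and 8 after quantile normalization, with 0 to 1 lower when an array was left out. Interactions, 7 positive and 22 negative, became 1 and 5 with the replicate block, 815 and 677 with the brightness set as a block and 101 and 101 after quantile normalization, and ranged over 0 to 1 and 2 to 14 with an array left out. The 214 higher and 261 lower members became 315 and 371 after quantile normalization and 265 and 379 after median and interquartile range scaling, and ranged over 278 to 578 and 320 to 634 with an array left out, since fewer arrays are easier to separate.

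Of the 23 genes that passed, 23 also passed after quantile normalization, 19 after interquartile range scaling, 22 without dim genes and 14 without the trend. Over 413 planned refits of named genes that passed, 187 stayed past the threshold, 226 did not and none changed sign. For members the lack of overlap fixes the sign in advance when an array is left out. The cause of the lower counts was not tested, and leaving out an array changes both the number of arrays and which arrays remain. With 2 arrays per population and no background measure, small differences of dim genes could not be resolved.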

Other observations

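Some gene groups differed by population in ways that a single stage difference does not show. The summed linear intensity of the G2 and M phase list was 15520 to 21301 in Id2-GFP- pre-CD8 and 36798 to 59914 over the other 3 populations. The lymphoid list summed to 19729 to 20917 in Id2-GFP- pre-CD8 and 5119 to 8226 elsewhere, and the early progenitor list to 27201 to 38027 in Id2-GFP- pre-CD8 and 10075 to 26458 elsewhere. The list of toll-like receptors and adaptors summed to 7348 to 10739 in Id2-GFP+ pre-CD8 and 4146 to 6305 elsewhere. These sums are given without a test.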
